A study of Mus musculus and Rattus norvegicus with 18 samples.

Results

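Fn1, Postn, Tnc, Tnn, Spp1, Sparc, Thbs1, Thbs2, Tgfbi and Srpx2 encode fibronectin, periostin, the tenascins C and N, and 6 other secreted proteins of the extracellular matrix that are mostly classed as matricellular. The genes were taken by symbol. All 10 were found among the 22322 genes counted in mouse cells and all 10 among the 22050 genes counted in rat cells. RNA had been sequenced from primary tubular epithelial cells of mouse kidney (TECs) and from NRK49F, a fibroblast line of rat kidney. Each cell kind had 3 groups of 3 libraries, 18 libraries in all. Control cells received medium alone. The TGF-β groups received TGF-β1 at 5 ng/ml for 24 h. The narciclasine groups received narciclasine, a plant alkaloid that inhibits the ribosome, at 20 nM for 2 h, and then TGF-β1 beside it for 24 h. All cells had been held without serum for 6 h, and there was no group with narciclasine alone. Cell kind goes with species, so the effects of either cannot be told apart.

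Fibronectin is assembled on cells into fibrils on which collagens and other matrix proteins are laid down. Matricellular proteins add little to the mechanical scaffold. They bind integrins, growth factors and collagens, are sparse in most healthy adult tissue, and appear where tissue is injured or fibrotic. TGF-β is the best known inducer of fibrotic matrix in the kidney, and several of these genes are used as readouts of it.

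The libraries held 16652016 to 25192716 counts in TECs and 14695732 to 18463855 in NRK49F. Values are counts-per-million (CPM), counts divided by the library size after its scaling by the trimmed mean of M-values (TMM), a scaling that sets the bulk of genes to no change. Fold changes are TMM-based log2 values with their standard error (SE) from edgeR's quasi-likelihood fit, and adjusted p-values are Benjamini-Hochberg values over all genes tested in that cell kind, 13244 in TECs and 11444 in NRK49F. A gene was called at an adjusted p under 0.05. Scaling by total counts alone moved the median of all genes by -0.13 (TGF-β against control, TECs), -0.19 (the same, NRK49F) and -0.12 (narciclasine against control, NRK49F) on the log2 scale. That scaling gave 3298 genes higher and 6169 lower with TGF-β in TECs, against 4513 and 4626 with TMM, and in NRK49F 2965 and 5497 against 3862 and 4354. A p-value here reflects the spread among such libraries: the 3 of a group are given as biological replicates, but whether those of TECs came from separate mice is not stated, and NRK49F is 1 line.

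The labelled cell kinds were set against marker genes. TECs expressed all 10 epithelial markers (among them Epcam, Cdh1 and Krt8) at a summed 6627 to 8263 CPM, while the 6 proximal tubule markers summed to 73.7 to 146 CPM. In NRK49F, 6 of the 8 fibroblast markers in the rat table passed the filter on low counts (among them Col1a1 and Pdgfrb), and the 8 summed to 10660 to 36050 CPM, with 1 of them at 0 in the narciclasine libraries. Most of this sum was Col1a1, with means of 7599 CPM in control, 23560 CPM with TGF-β and 12420 CPM with narciclasine. Of the 6 tested, 3 rose and 3 fell with TGF-β (log2 fold changes of -1.37 to 4.29). Over all genes tested in NRK49F, 33.7% rose and 38% fell. The submitters' notes name the mouse build mm10 for the rat libraries too, while their counts carry rat gene identifiers, so the genome behind the NRK49F values is uncertain. In these bulk samples, fewer cells of a type and less RNA per cell cannot be told apart. The libraries of replicate 2 differed from their groups in NRK49F. The chi-square per gene was 7.57 to 20 for the 6 pairs of libraries that held replicate 2 and 2.37 to 3.32 for the 3 other pairs, whereas in TECs all pairs lay between 1.84 and 3.69.

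Among mouse promoters in RefSeq (GRCm38.p6), 8 of the 10 genes had an entry, all but Fn1 and Thbs1. The 250 bases before the start are shown for 5 genes: Srpx2 at chrX:133908175-133908424 (plus strand), Thbs2 at chr17:14694263-14694512 (minus strand) and Tnc at chr4:64047016-64047265 (minus strand), the 3 of the 8 with the largest rise in TECs under TGF-β; Postn at chr3:54360857-54361106 (plus strand), which had the largest rise in NRK49F among genes with more than 3 control counts; and Spp1 at chr5:104434861-104435110 (plus strand), the gene that fell in TECs under TGF-β. Sequences run 5′ to 3′ along the gene's strand, and capitals mark matches to any of 4 motifs searched on both strands: TGANTCA (the AP-1 motif), CAGAC (a half-site bound by SMAD proteins, the transcription factors of TGF-β signalling), CATTCC (bound by TEAD proteins) and TATAAA (the TATA box).
Srpx2: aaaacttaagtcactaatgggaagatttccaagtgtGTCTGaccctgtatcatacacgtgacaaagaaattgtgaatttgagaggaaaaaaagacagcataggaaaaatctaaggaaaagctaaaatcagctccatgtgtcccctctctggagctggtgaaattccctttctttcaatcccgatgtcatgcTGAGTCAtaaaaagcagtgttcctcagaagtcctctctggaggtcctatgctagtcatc
Thbs2: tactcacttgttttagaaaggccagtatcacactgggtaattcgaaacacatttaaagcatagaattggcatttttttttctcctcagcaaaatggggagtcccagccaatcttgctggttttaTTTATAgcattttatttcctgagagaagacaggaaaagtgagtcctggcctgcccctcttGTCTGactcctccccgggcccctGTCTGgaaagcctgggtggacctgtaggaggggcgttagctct
Tnc: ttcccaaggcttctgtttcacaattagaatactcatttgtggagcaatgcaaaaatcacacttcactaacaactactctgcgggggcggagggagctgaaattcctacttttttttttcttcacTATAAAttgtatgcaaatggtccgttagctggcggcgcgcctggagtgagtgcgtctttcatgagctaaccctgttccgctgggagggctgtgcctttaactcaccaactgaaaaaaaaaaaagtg
Postn: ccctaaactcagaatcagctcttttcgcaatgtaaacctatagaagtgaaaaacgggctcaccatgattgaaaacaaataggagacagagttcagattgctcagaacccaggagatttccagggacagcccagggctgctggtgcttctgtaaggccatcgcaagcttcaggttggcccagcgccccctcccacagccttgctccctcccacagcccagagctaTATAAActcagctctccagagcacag
Spp1: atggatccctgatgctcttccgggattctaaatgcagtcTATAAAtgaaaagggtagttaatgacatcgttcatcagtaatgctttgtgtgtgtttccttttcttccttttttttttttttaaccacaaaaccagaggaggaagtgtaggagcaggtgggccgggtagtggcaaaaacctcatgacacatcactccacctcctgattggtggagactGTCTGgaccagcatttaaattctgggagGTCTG
The AP-1 motif was in 1 of the 8 windows, that of Srpx2, 59 bases before the start, and in 6.75% of all 32851 windows in the table. CAGAC or its reverse complement GTCTG was in 5 of the 8 (Spp1, Sparc, Thbs2, Tgfbi and Srpx2) and in 42.2% of all windows. TATAAA or TTTATA was in 4 of the 8 (Postn, Tnc, Spp1 and Thbs2) and in 12.4% of all windows. In Postn it began 26 bases before the start, and in the 3 others 126 or 211 bases before it. CATTCC or GGAATG was in 1 of the 8 (Tnn) and in 12.6% of all windows. These matches describe letters only.

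With TGF-β, 8 of the 9 genes tested in TECs rose and Spp1 fell, whereas all 10 rose in NRK49F. The background was high: in TECs 34.1% of all genes tested were called higher and 34.9% lower (69% in either direction), and in NRK49F 33.7% higher and 38% lower (71.8%). The median log2 fold change of the genes was 1.20 in TECs and 4.23 in NRK49F, against medians over all genes tested of -0.0049 and -0.050. The genes were chosen with earlier results of these data known, so their distance from all genes is described and was not tested. The NRK49F median does not depend on the fitted value of Srpx2, whose ratio to control had a lower bound of 372. Tnn did not pass the filter on low counts in TECs. Among genes called, changes of at least 2-fold made up 15% of all genes tested in TECs and 23.1% in NRK49F. With narciclasine added, 8 of 9 genes in TECs and 9 of 10 in NRK49F were lower than with TGF-β alone, and Thbs1 was higher in both. Over all genes tested, 25.5% were lower and 26.8% higher in TECs (52.3% in either direction), and 31.1% lower and 31.6% higher in NRK49F (62.7%). The median log2 fold change of the genes was -0.85 in TECs and -1.70 in NRK49F, against 0.0019 and -0.0020 over all genes. The comparisons with control and with narciclasine share the TGF-β libraries, so that their values are not independent and are given side by side.

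Against control, cells with both agents had 6 genes higher, 2 lower (Spp1 and Tgfbi) and 1 not called (Postn) in TECs, where 32.4% of all genes were higher and 30.6% lower (63% in either direction). In NRK49F 9 were higher and 1, Spp1, was not called, where 33.4% of all genes were higher and 33.4% lower (66.8%). The 10 genes together made up 1.78% to 1.8% of a control library of TECs, 2.99% to 3.14% of a TGF-β library, and 2.51% to 2.63% of one with narciclasine. In NRK49F their shares were 1.21% to 1.46%, 4.42% to 4.62% and 2.75% to 2.98%. Libraries of different groups did not overlap in either cell kind.

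**Figure D1:**
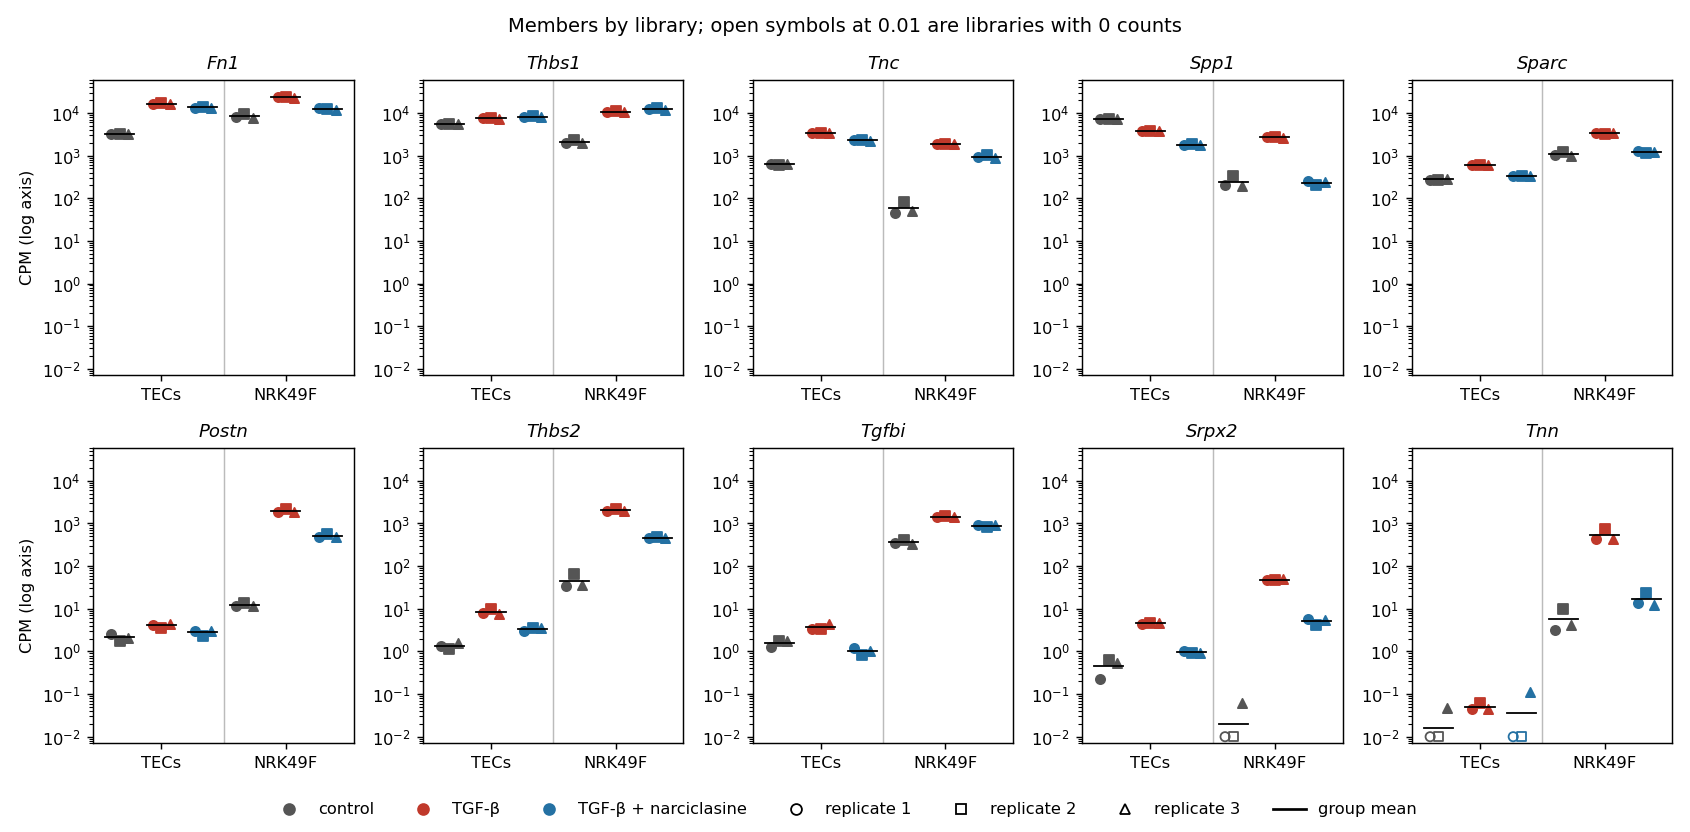
CPM of each of the 10 genes in each library on a log axis, with control in grey, TGF-β in red and TGF-β with narciclasine in blue; circles, squares and triangles are replicates 1, 2 and 3, lines are group means and open symbols at 0.01 are libraries with 0 counts. In TECs Spp1 stood at 7221 to 7394 CPM in control and fell under both treatments, while in NRK49F it rose from 193.1 to 328.8 CPM in control to 2589 to 2734 CPM with TGF-β.

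Fibronectin, the integrin-binding glycoprotein of the fibrillar matrix, is encoded by Fn1 on mouse chromosome 1 (GRCm38, 71585520 to 71653200, minus strand). Fn1 in TECs stood at 3239, 3158 and 3288 CPM in control, at 16430, 17070 and 15940 CPM with TGF-β, and at 13150, 13950 and 13220 CPM with narciclasine added. The 3 groups were apart, with the narciclasine libraries closer to TGF-β than to control. TGF-β raised Fn1 5.11-fold in TECs (log2 2.35 ± 0.026 SE, n = 3 and 3, edgeR adjusted p = 1.5e-26). Narciclasine lowered Fn1 there to 81.6% of the level with TGF-β alone (log2 -0.29 ± 0.025 SE, edgeR adjusted p = 1.2e-09). In NRK49F, Fn1 stood at 7905, 9260 and 7610 CPM in control, at 23960, 23640 and 22790 CPM with TGF-β, and at 12930, 12600 and 11920 CPM with narciclasine. Here too no groups overlapped, and the narciclasine libraries were closer to control. The rise with TGF-β was 2.84-fold (log2 1.51 ± 0.075 SE, edgeR adjusted p = 1.3e-10), and narciclasine left 53.2% of the TGF-β level (log2 -0.91 ± 0.074 SE, edgeR adjusted p = 6.8e-08).

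Tenascin-C, a large hexameric glycoprotein of embryonic and injured tissue, is encoded by Tnc on mouse chromosome 4 (63959785 to 64047015, minus strand). Tnc in TECs measured 638.7, 608.1 and 637.8 CPM in control, 3375, 3457 and 3304 CPM with TGF-β, and 2257, 2332 and 2244 CPM with narciclasine. The groups did not overlap. Tnc rose 5.38-fold with TGF-β (log2 2.43 ± 0.024 SE, edgeR adjusted p = 7e-45) and stood at 67.4% of that level with narciclasine (log2 -0.57 ± 0.022 SE, edgeR adjusted p = 2.1e-23). Tnc in NRK49F was at 45.39, 80.57 and 50.52 CPM in control, at 1889, 1825 and 1848 CPM with TGF-β, and at 918.9, 1025 and 860.3 CPM with narciclasine. Control replicate 2 was the highest of its group, and the groups were far apart. The rise with TGF-β was 31.5-fold (log2 4.98 ± 0.23 SE, edgeR adjusted p = 4.4e-07), and narciclasine left 50.4% of the TGF-β level (log2 -0.99 ± 0.19 SE, edgeR adjusted p = 0.0028).

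Tenascin-N, also called tenascin-W, is a smaller tenascin known from bone, tendon and tumour stroma, and its gene Tnn lies on mouse chromosome 1 (160085029 to 160153580, minus strand). Tnn in TECs had 0, 0 and 1 counts in control, 1, 1 and 1 with TGF-β, and 0, 0 and 2 with narciclasine, which is too few to compare. The ratio of TGF-β to control there was 2.95 with an exact 95% interval of 0.237 to 155 that covers counting error only. Tnn in NRK49F stood at 3.238, 9.936 and 4.215 CPM in control, at 436.5, 722.1 and 444 CPM with TGF-β, and at 13.54, 23.9 and 12.58 CPM with narciclasine. Replicate 2 was the highest library in each of the 3 groups, and no groups overlapped. TGF-β raised Tnn 92.8-fold (log2 6.54 ± 0.49 SE, edgeR adjusted p = 2.2e-05). Without control replicate 2 this log2 value was 7.16. With narciclasine 3.12% of the TGF-β level was left (log2 -4.99 ± 0.43 SE, edgeR adjusted p = 6.6e-05), the lowest share among the 10 genes in either cell kind. That level was 2.92-fold the control's (log2 1.55 ± 0.54 SE, edgeR adjusted p = 0.041), a call that did not hold in 8 of 15 alternative settings. The value rose to 2.18 (edgeR adjusted p = 0.039) without control replicate 2.

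Periostin, a protein of fasciclin domains that binds collagen and tenascin-C, is encoded by Postn on mouse chromosome 3 (54361109 to 54391037, plus strand). Postn was scarce in TECs, at 46, 47 and 43 counts in control, 92, 60 and 97 with TGF-β, and 67, 42 and 56 with narciclasine. Scaled to depth these were 2.618, 1.766 and 2.056 CPM in control, 4.202, 3.628 and 4.403 CPM with TGF-β, and 2.995, 2.269 and 3.086 CPM with narciclasine. The TGF-β libraries were above all others, and the narciclasine libraries overlapped control. Postn in TECs rose 1.95-fold with TGF-β (log2 0.96 ± 0.19 SE, edgeR adjusted p = 1.9e-05). Narciclasine lowered it (log2 -0.55 ± 0.18 SE, edgeR adjusted p = 0.0091), though not without narciclasine replicate 2 (edgeR adjusted p = 0.058). Postn in NRK49F measured 11.33, 13.42 and 11.67 CPM in control, 1901, 2146 and 1862 CPM with TGF-β, and 482.6, 574.8 and 491.4 CPM with narciclasine. The groups were wide apart. The rise was 162-fold (log2 7.34 ± 0.11 SE, edgeR adjusted p = 1e-15), and narciclasine left 26.2% of the TGF-β level (log2 -1.93 ± 0.080 SE, edgeR adjusted p = 1.6e-10). The level left was still 42.5-fold that of control (log2 5.41 ± 0.10 SE, edgeR adjusted p = 1.2e-14).

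TGFBI, named for its induction by TGF-β, has the same fasciclin domains as periostin and binds integrins and collagens, and its gene Tgfbi lies on mouse chromosome 13 (56609523 to 56639562, plus strand). Tgfbi in TECs had 22, 46 and 36 counts in control, 72, 54 and 96 with TGF-β, and 27, 15 and 19 with narciclasine. In CPM these were 1.252, 1.729 and 1.721 in control, 3.289, 3.265 and 4.357 with TGF-β, and 1.207, 0.8104 and 1.047 with narciclasine. All TGF-β libraries were above control and all narciclasine libraries below it. Tgfbi in TECs rose 2.30-fold with TGF-β (log2 1.20 ± 0.21 SE, edgeR adjusted p = 4.9e-06) and fell with narciclasine to 28.1% of that level (log2 -1.82 ± 0.24 SE, edgeR adjusted p = 2e-08). The difference from control (log2 -0.62 ± 0.26 SE, edgeR adjusted p = 0.039) was lost in 6 of 15 alternative settings, among them DESeq2 and leaving out control replicate 2, control replicate 3, narciclasine replicate 2 or narciclasine replicate 3. Tgfbi in NRK49F was abundant, at 344.1, 411.3 and 338.9 CPM in control, 1429, 1476 and 1409 CPM with TGF-β, and 902.9, 815.1 and 916.6 CPM with narciclasine. The narciclasine libraries lay between the other groups, with no overlap. TGF-β raised it 3.94-fold (log2 1.98 ± 0.076 SE, edgeR adjusted p = 7.4e-12), and narciclasine left 61.1% of that level (log2 -0.71 ± 0.073 SE, edgeR adjusted p = 7.7e-07).

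Osteopontin, an acidic phosphoprotein that binds integrins and the hyaluronan receptor Cd44, is made by kidney tubules and rises in injury, and its gene Spp1 lies on mouse chromosome 5 (104435118 to 104441050, plus strand). Spp1 in TECs stood at 7221, 7362 and 7394 CPM in control, at 3723, 3736 and 3817 CPM with TGF-β, and at 1800, 1829 and 1775 CPM with narciclasine. Each group lay below the one before it, with no overlap. Spp1 in TECs fell by 0.96 on the log2 scale with TGF-β (± 0.019 SE, edgeR adjusted p = 3.7e-34), to 51.3% of control. Narciclasine left 47.9% of the TGF-β level (log2 -1.06 ± 0.020 SE, edgeR adjusted p = 1.4e-34) and 24.6% of the control level (log2 -2.02 ± 0.020 SE, edgeR adjusted p = 3.2e-44). Spp1 in NRK49F moved the other way with TGF-β, from 198.7, 328.8 and 193.1 CPM in control to 2734, 2704 and 2589 CPM, and stood at 252.3, 208.7 and 235 CPM with narciclasine. The narciclasine libraries overlapped control, of which replicate 2 was the highest. The rise was 11.1-fold (log2 3.48 ± 0.22 SE, edgeR adjusted p = 4e-06), and narciclasine left 8.67% of the TGF-β level (log2 -3.53 ± 0.22 SE, edgeR adjusted p = 5.7e-06). Against control, Spp1 in NRK49F with both agents differed by -0.05 on the log2 scale (± 0.21 SE, edgeR adjusted p = 0.85). Without control replicate 2 that difference was 0.24 (edgeR adjusted p = 0.0020).

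SPARC, or osteonectin, binds collagen and calcium and takes part in collagen assembly, and its gene Sparc lies on mouse chromosome 11 (55394500 to 55423183, minus strand). Sparc in TECs measured 273.9, 273.1 and 279.6 CPM in control, 598.6, 596.4 and 596 CPM with TGF-β, and 328.6, 337.9 and 324.8 CPM with narciclasine. The narciclasine libraries lay just above control. Sparc in TECs rose 2.17-fold (log2 1.12 ± 0.025 SE, edgeR adjusted p = 7.1e-33), and 55.3% of that level was left with narciclasine (log2 -0.85 ± 0.024 SE, edgeR adjusted p = 5.3e-28). In NRK49F, Sparc was at 1040, 1206 and 1002 CPM in control, at 3450, 3222 and 3435 CPM with TGF-β, and at 1279, 1172 and 1203 CPM with narciclasine, where control replicate 2 overlapped the narciclasine libraries. The rise was 3.11-fold (log2 1.64 ± 0.072 SE, edgeR adjusted p = 3.1e-11), and narciclasine left 36.2% of the TGF-β level (log2 -1.47 ± 0.071 SE, edgeR adjusted p = 4.8e-10). Its difference from control (log2 0.17 ± 0.070 SE, edgeR adjusted p = 0.043) was lost in 7 of 15 alternative settings, and with total counts it was 0.05 (edgeR adjusted p = 0.48).

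Thrombospondin-1, a trimeric glycoprotein that can release TGF-β from its latent form, is encoded by Thbs1 on mouse chromosome 2 (118111876 to 118127133, plus strand). Thbs1 in TECs stood at 5514, 5438 and 5484 CPM in control, at 7539, 7788 and 7347 CPM with TGF-β, and at 7985, 8292 and 7941 CPM with narciclasine. All narciclasine libraries were above all TGF-β libraries. TGF-β raised Thbs1 1.38-fold in TECs (log2 0.46 ± 0.021 SE, edgeR adjusted p = 2.6e-22), and narciclasine added 0.10 on the log2 scale (± 0.021 SE, edgeR adjusted p = 1.5e-04). Thbs1 in NRK49F was at 1970, 2323 and 1991 CPM in control, at 10630, 10960 and 10320 CPM with TGF-β, and at 12680, 13040 and 11770 CPM with narciclasine. The narciclasine libraries were again above all TGF-β libraries. The rise with TGF-β was 5.08-fold (log2 2.34 ± 0.074 SE, edgeR adjusted p = 9.8e-13), and with narciclasine the level was 1.17-fold higher again (log2 0.23 ± 0.071 SE, edgeR adjusted p = 0.010). The last call was lost without TGF-β replicate 3 (log2 0.21, edgeR adjusted p = 0.051).

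Thrombospondin-2, which lacks the sequence with which thrombospondin-1 acts on latent TGF-β, is encoded by Thbs2 on mouse chromosome 17 (14665500 to 14694235, minus strand). Thbs2 was scarce in TECs, with 24, 30 and 33 counts in control, 178, 165 and 170 with TGF-β, and 69, 65 and 63 with narciclasine. In CPM these were 1.366, 1.127 and 1.578 in control, 8.131, 9.977 and 7.716 with TGF-β, and 3.085, 3.512 and 3.471 with narciclasine. The narciclasine libraries lay between the others with no overlap. Thbs2 in TECs rose 6.35-fold (log2 2.67 ± 0.17 SE, edgeR adjusted p = 3e-17) and fell with narciclasine to 39% of that level (log2 -1.35 ± 0.15 SE, edgeR adjusted p = 3.8e-10). Thbs2 in NRK49F measured 34.66, 65.82 and 36.66 CPM in control, 1991, 2179 and 1993 CPM with TGF-β, and 446.5, 477.5 and 450.9 CPM with narciclasine. Control replicate 2 was the highest of its group. The rise was 45.0-fold (log2 5.49 ± 0.26 SE, edgeR adjusted p = 9.4e-07), and 22.3% of the TGF-β level was left with narciclasine (log2 -2.16 ± 0.22 SE, edgeR adjusted p = 1.1e-04).

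SRPX2, a secreted protein with sushi repeats that binds the urokinase receptor encoded by Plaur, comes from Srpx2 on mouse chromosome X (133908426 to 133932446, plus strand). Srpx2 in TECs had 4, 17 and 11 counts in control, 97, 77 and 100 with TGF-β, and 23, 17 and 17 with narciclasine. These were 0.2276, 0.6389 and 0.5259 CPM, 4.431, 4.656 and 4.539 CPM, and 1.028, 0.9184 and 0.9367 CPM. The groups did not overlap. TGF-β raised Srpx2 9.19-fold in TECs (log2 3.20 ± 0.26 SE, edgeR adjusted p = 3.4e-14), and narciclasine left 21.2% of that level (log2 -2.23 ± 0.23 SE, edgeR adjusted p = 1.2e-10). What was left exceeded control by 0.97 on the log2 scale (± 0.34 SE, edgeR adjusted p = 0.011), a call lost without control replicate 1 (edgeR adjusted p = 0.067). Srpx2 in NRK49F had 0, 0 and 1 counts in control, 740, 642 and 713 with TGF-β, and 100, 78 and 81 with narciclasine. Only 1 count was found in the 3 control libraries together. The ratio to control was 2076 with TGF-β (exact 95% interval 372 to 82030) and 230 with both agents (41 to 9132), intervals that cover counting error only. Narciclasine left 10.6% of the TGF-β level in NRK49F (log2 -3.24 ± 0.12 SE, edgeR adjusted p = 5.2e-11).

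**Figure D2:**
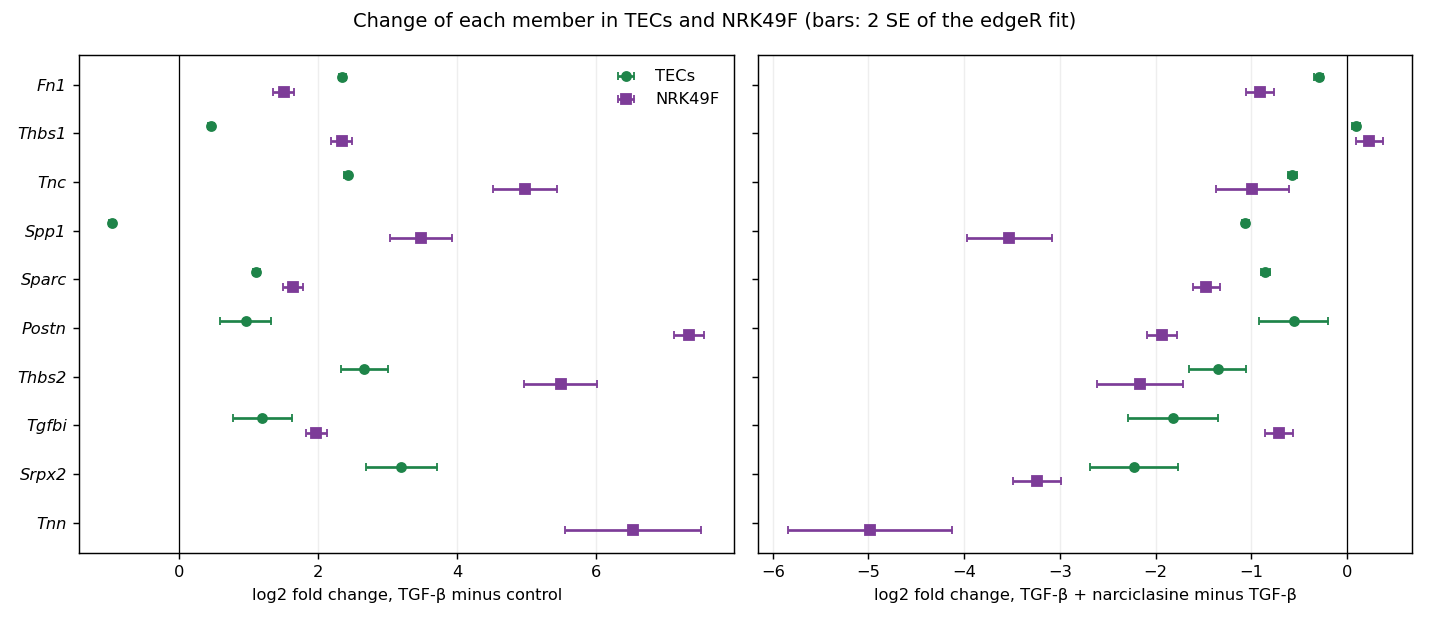
Log2 fold change of each gene with TGF-β against control (left) and with narciclasine added against TGF-β alone (right), for TECs (green circles) and NRK49F (purple squares); bars are 2 SE of the edgeR fit, Tnn was not tested in TECs, and Srpx2 in NRK49F is left out on the left because its control held 1 count. With TGF-β, Spp1 had -0.96 in TECs and 3.48 in NRK49F, and with narciclasine Thbs1 had values above 0 in both.

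The sizes of the effects were compared between the cell kinds in 1 fit of all 18 libraries, over 12161 genes matched by symbol. The TGF-β effect was larger in NRK49F for 8 of the 10 genes and larger in TECs for Fn1. Over all genes, 30.1% had a higher log2 fold change in NRK49F and 31.3% a higher one in TECs. Fn1 differed by 0.81 in log2 fold change (TECs minus NRK49F, ± 0.079 SE, edgeR adjusted p = 6.7e-10). Postn differed by -6.40 (± 0.27 SE, edgeR adjusted p = 9.3e-14), and Spp1, with opposite directions, by -4.47 (± 0.23 SE, edgeR adjusted p = 6.9e-10). Values for the other called genes lay between -0.55 (Sparc) and -2.86 (Thbs2), apart from Srpx2, whose fitted value rested on the 1 control count in NRK49F. Tnn was not called, and its value rested in TECs on 3 counts with TGF-β and 1 in control.

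With narciclasine, the effect was more negative in NRK49F for Fn1, Postn, Spp1, Sparc and Srpx2, and more negative in TECs for Tgfbi, where over all genes 27% had a lower value in NRK49F and 19.9% a lower value in TECs. The largest of these differences was that of Spp1 (TECs minus NRK49F 2.53 ± 0.22 SE, edgeR adjusted p = 5.7e-07), and that of Tgfbi was -1.05 (± 0.24 SE, edgeR adjusted p = 9.5e-04). Thbs1 differed by -0.08 (± 0.076 SE, edgeR adjusted p = 0.45), Tnc by 0.48 (± 0.20 SE, edgeR adjusted p = 0.065) and Thbs2 by 0.88 (± 0.39 SE, edgeR adjusted p = 0.087), none of them called, nor was Tnn. Without replicate 2 of every group, Tnc, Thbs2 and Tnn were called too. The shares over all genes depended on the scaling. With total counts, 2732 genes had a lower value in NRK49F and 3061 a lower one in TECs, against 3281 and 2420 with TMM.

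**Figure D3:**
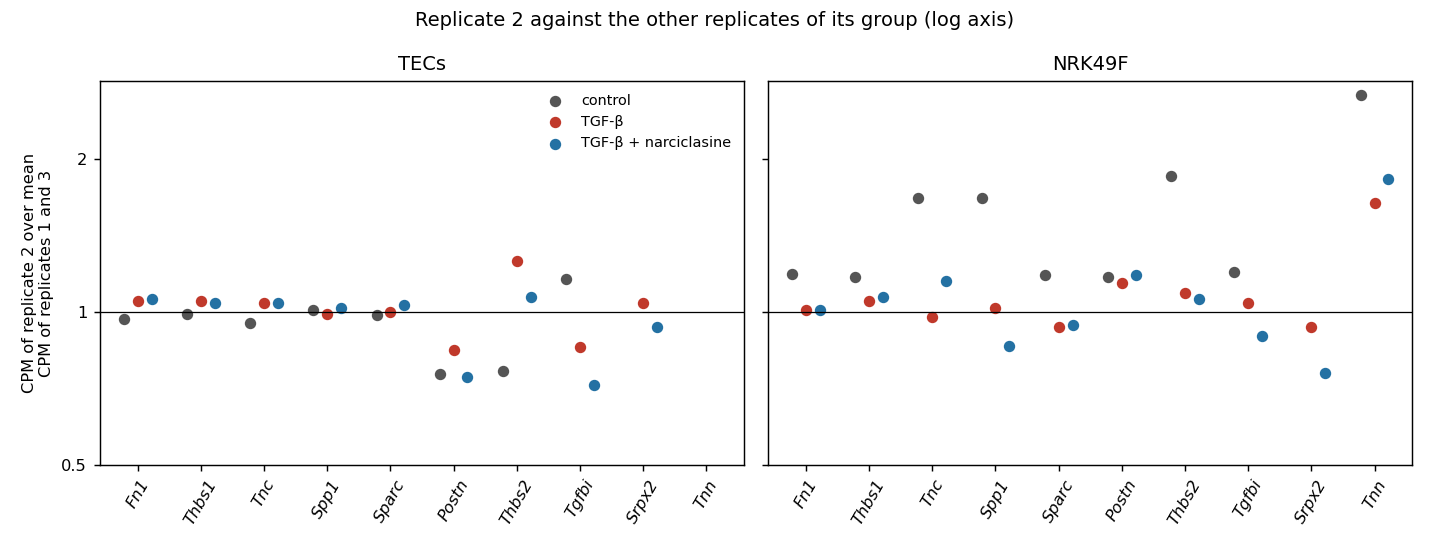
CPM of replicate 2 divided by the mean CPM of replicates 1 and 3 of its group, for each gene with more than a few counts, on a log axis; grey is control, red TGF-β and blue TGF-β with narciclasine. In NRK49F control, replicate 2 was above the other libraries for the 9 genes shown, by 1.17 to 2.67 times, whereas in the other groups of NRK49F and in TECs ratios fell on both sides of 1.

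In NRK49F control, replicate 2 was the highest library for each of the 9 genes with enough counts. Relative to the mean of replicates 1 and 3, control replicate 2 held 2.67 times the Tnn, 1.85 times the Thbs2, and 1.68 times the Spp1 and the Tnc. For the 5 other genes the ratio lay between 1.17 and 1.20. Leaving replicate 2 out of every group changed no call of the 10 genes for TGF-β against control or for narciclasine against TGF-β in NRK49F.

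Between genes, levels can be compared only per length, which the mouse annotation (GENCODE M21) allows. In control TECs, Spp1 had 4443 CPM per kb of exon (rank 3 of 22267 genes with a length), Thbs1 902 (rank 21), Fn1 276 (rank 94), Tnc 80.8 (rank 449) and Sparc 72.7 (rank 506). With TGF-β, the order was Spp1 at 2280, Fn1 at 1410, Thbs1 at 1244, Tnc at 434.5 and Sparc at 157.5 CPM per kb, with ranks of 12, 15, 20, 58 and 216. With narciclasine it was Thbs1 at 1329, Fn1 at 1150, Spp1 at 1093, Tnc at 293 and Sparc at 87.2, and the library ranges of neighbours in each of these orders did not overlap. Srpx2, Thbs2, Tgfbi, Postn and Tnn were at most at 1.55 CPM per kb in TECs. Of the exon bases, 292 of 11685 in Fn1, 176 of 7772 in Tnc, 309 of 1648 in Spp1 and 208 of 6073 in Thbs1 overlap another annotated gene. The library kit named in the labels does not mark strand, so reads from these stretches cannot be told apart by gene. No lengths were used for the rat genes.

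Relatives of these genes, their receptors, and the collagens and enzymes they work with were followed as lists. The lists too were chosen with earlier results of these data known, so their counts beside all genes are descriptions. Of 26 relatives tested in TECs (other tenascins and thrombospondins, CCN proteins, fibulins, SPARC relatives), 14 rose with TGF-β and 6 fell, with a median log2 fold change of 0.83, where 34.1% of all genes rose and 34.9% fell. Spock3, a SPARC-family proteoglycan, rose by 3.56 (± 0.17 SE) and Ccn4, a CCN protein, by 2.78 (± 0.026 SE). In NRK49F 14 of 23 rose and 6 fell, with a median of 0.91, where 33.7% of all genes rose and 38% fell. Ccn2, connective tissue growth factor, rose there by 5.09 (± 0.52 SE) from 128 to 4365 CPM, and Ccn3, a CCN protein that can oppose Ccn2, fell by 4.64 (± 0.086 SE) from 5530 to 222 CPM. With narciclasine against TGF-β alone, 16 of 26 relatives fell and 2 rose in TECs (median -0.41), and 18 of 23 fell and 2 rose in NRK49F (median -0.75). Over all genes, 25.5% fell and 26.8% rose in TECs, and 31.1% fell and 31.6% rose in NRK49F. Sparcl1, the closest relative of Sparc, fell by 3.15 (± 0.18 SE) in TECs, and the basement membrane protein gene Nid2 by 2.97 (± 0.077 SE) in NRK49F.

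Of 19 receptor genes tested in TECs, 14 rose with TGF-β and 3 fell (median 0.49; 34.1% and 34.9% of all genes). Itgb3 rose by 2.17 (± 0.041 SE) and Itga5, which with Itgb1 forms the main fibronectin receptor, by 2.05 (± 0.035 SE). In NRK49F 9 of 13 rose and 4 fell (median 0.80; 33.7% and 38% of all genes). Calr, a chaperone that binds thrombospondin at the cell surface, rose by 2.12 (± 0.062 SE), and Plaur, the receptor of Srpx2, by 1.98 (± 0.12 SE). With narciclasine 16 of 19 were lower in TECs and 0 higher (median -0.38), and 7 of 13 were lower and 3 higher in NRK49F (median -0.54). Over all genes the shares lower and higher were 25.5% and 26.8% in TECs, and 31.1% and 31.6% in NRK49F. Itga4 fell by 2.01 (± 0.25 SE) in TECs, and Itgb3 fell by 2.86 (± 0.10 SE) in NRK49F.

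Among 22 matrix partners tested in TECs, 18 rose with TGF-β and 2 fell (median 0.95; 34.1% and 34.9% of all genes), led by the gelatinase Mmp9 with 3.81 (± 0.046 SE) and with the collagen crosslinker Lox at 2.80 (± 0.033 SE). In NRK49F 16 of 21 rose and 2 fell (median 1.32; 33.7% and 38% of all genes), with the fibrillar collagen genes Col5a2 at 2.25 (± 0.082 SE) and Col3a1 at 2.06 (± 0.062 SE). With narciclasine 18 of 22 fell and 1 rose in TECs (median -0.52), and 17 of 21 fell and 1 rose in NRK49F (median -0.71), where 25.5% of all genes fell and 26.8% rose in TECs, and 31.1% fell and 31.6% rose in NRK49F. Col1a2 fell by 2.43 (± 0.057 SE) in TECs. Tgm2, which crosslinks fibronectin, fell by 2.15 (± 0.27 SE) in NRK49F. In TECs it was the 1 partner that rose, by 0.67 (± 0.028 SE) from 217.1 to 344.7 CPM. All counts are from edgeR at an adjusted p under 0.05. Of 8 genes used as readouts of TGF-β signalling (among them Smad7, Skil and Pmepa1), 8 were higher with TGF-β in TECs (34.1% of all genes) and 7 in NRK49F (33.7%). With narciclasine, 5 were lower and 1 higher in TECs, and 1 lower and 1 higher in NRK49F, with medians of -0.09 and -0.10, beside the same shares of all genes as for the partners.

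**Figure D4:**
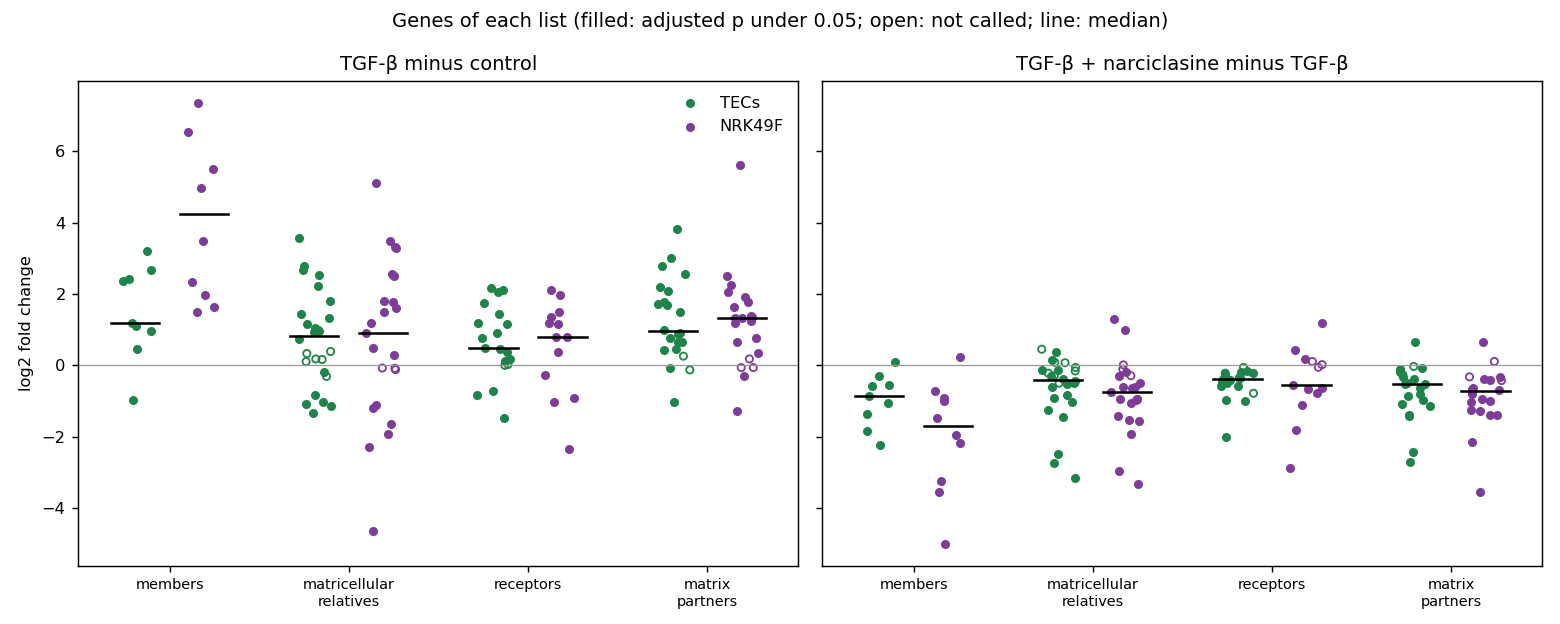
Log2 fold change of every tested gene of 4 lists with TGF-β against control (left) and with narciclasine against TGF-β alone (right), in TECs (green) and NRK49F (purple); filled points passed an adjusted p under 0.05, open points did not, lines are medians, and Srpx2 in NRK49F is not drawn on the left. With narciclasine the medians of all 4 lists were below 0 in both cell kinds, between -0.38 and -1.70.

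Markers of other cells moved with the groups in TECs. The 9 fibroblast markers, of which Col1a1, Col1a2 and Col3a1 are also among the matrix partners, summed to 96.6 to 99.8 CPM in control, 328.6 to 350.3 CPM with TGF-β and 121.1 to 135.2 CPM with narciclasine. Most of this sum was Col1a1 (means of 35.2, 206.5 and 79.1 CPM) and Col1a2 (25.9, 87.8 and 16.3 CPM). Of the 7 tested, 5 rose with TGF-β, S100a4 fell by 0.88 and Thy1 was not called (-0.01). With narciclasine 5 fell, while Pdgfra (-0.07) and S100a4 (0.09) were not called. The 12 macrophage and leukocyte markers, such as Ptprc and Cd68, summed to 46.9 to 48.4 CPM, 71.5 to 78.0 CPM and 30.7 to 31.2 CPM. Of the 11 tested, 8 rose with TGF-β, Cd68 fell (-0.28), and Ptprc (-0.37) and Csf1r (0.22) were not called. With narciclasine 10 fell, and Csf1r (0.18) was not called. Several of these markers had few counts, such as C1qa (means of 0.58, 1.09 and 0.03 CPM) and Tyrobp (0.20, 0.79 and 0.05 CPM), while Lyz2 had 7.9, 21.9 and 3.1 CPM. Beside both lists, 34.1% of all genes in TECs rose and 34.9% fell with TGF-β. With narciclasine 26.8% rose and 25.5% fell. Macrophages are a known source of Spp1, Fn1 and Tgfbi. The part of these cells in the results was not tested. The 6 endothelial markers summed to 105.9 to 124.7 CPM and the 4 podocyte markers to 44.2 to 60.8 CPM over the groups. In NRK49F, 3 of 10 epithelial markers and 2 of 12 macrophage and leukocyte markers passed the filter on low counts, and the summed levels were 575 to 1262 CPM and 43.0 to 105 CPM. The 4 podocyte markers also moved with the groups in NRK49F. They summed to 188 to 294 CPM in control, 37.9 to 40.8 CPM with TGF-β and 58.6 to 64.4 CPM with narciclasine. Only 1 of them passed the filter, with -2.69 under TGF-β and 0.61 when narciclasine was added.

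The genes whose pattern over the 9 libraries of a cell kind lay nearest were found by the Euclidean distance between log2 CPM values centred on each gene's mean, among genes with at least 5 CPM on average. The libraries are shared by all genes, so the distances are descriptions. In TECs, out of 10355 genes, the nearest to Fn1 were Ass1, Ndrg4 and Lrig3 (distances of 0.112, 0.163 and 0.198), and the nearest to Tnc were Chst11, Prag1 and Lrig3 (0.167, 0.196 and 0.229). Sparc lay nearest to Rab32, Igfbp7 and Il18rap (0.136, 0.14 and 0.145), and Thbs1 to Hspg2, Slc12a7 and Usp22 (0.0738, 0.0766 and 0.0861). Spp1 lay nearest to Gdf15, Muc1 and Gc (0.299, 0.307 and 0.364), and Thbs2 to Col1a1, Muc4 and Col5a3 (0.34, 0.421 and 0.441). Postn, Tgfbi and Srpx2, with few counts, had their nearest genes at 0.344 (Cd55), 0.596 (Sprr2a2) and 0.928 (Nfkbia).

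In NRK49F, out of 9627 genes, Fn1 lay nearest to Cp, Cnn3 and Col1a1 (0.118, 0.203 and 0.228), Sparc to Scarb1, Nnmt and Pcna (0.166, 0.19 and 0.283), and Tgfbi to Mcm7, Lox and Plaur (0.22, 0.283 and 0.284). Thbs1 lay nearest to Hbegf, Fbxw7 and Prickle1 (0.29, 0.316 and 0.365). Hbegf, a ligand of the EGF receptor, had means of 17 CPM in control, 86.8 CPM with TGF-β and 109 CPM with narciclasine. Spp1 lay nearest to Padi3, Fibin and Nid2 (0.553, 0.811 and 0.819). Genes with larger rises had more distant neighbours, which were Il1rl1 for Postn (1.2), Enpp1 for Tnc (1.05), Lamb3 for Thbs2 (1.28), Fmod for Srpx2 (1.59) and Slc47a1 for Tnn (1.97). Members of the group were near each other in 2 cases, Tnc as the second nearest of Thbs2 (1.45) and Postn as the second nearest of Srpx2 (1.86).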

How the data were processed

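RNA from TECs and NRK49F was sequenced from poly(A)-enriched libraries on an Illumina instrument, per the labels' protocols. The authors deposited counts per gene and library, 1 table per cell kind, not normalized. Per the submitters' processing notes, the tools were featureCounts, HISAT2 2.1.0 and DESeq2 (roles and order not given) and the build was mm10, named for the rat libraries as well. The rat counts carry rat Ensembl identifiers, and a rat build is not given in the sources used here. Of 22322 mouse identifiers, 22267 were found in GENCODE M21. Counts were filtered with filterByExpr by group, scaled with TMM and fitted with edgeR 4.0.16 (R 4.3.3), robust quasi-likelihood, in 1 fit of 9 libraries per cell kind without a block. Differences between cell kinds came from an interaction fit of 18 libraries on genes matched by symbol, which stands for orthology. Fold changes are (first group) minus (second group) on the log2 scale. Alternatives were RLE factors, total counts, no filter, DESeq2 1.42.0, a replicate block, each library left out, and replicate 2 left out. The steps were tested on simulated counts. The genes and lists were chosen with earlier results of these data known. Named genes were all 10, and from each list up to 4 called genes with the largest change, of which some are given. Some values of the gene lists are not reported here.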

Additional observations from a re-analysis of the deposited data

Results flagged for a closer look

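A test of the interaction found that the effect of TGF-β differed between TECs and NRK49F for 9 of the 10 genes, and that of narciclasine for 6. Over all 12161 genes compared, the log2 fold change with TGF-β was higher in TECs for 31.3% and higher in NRK49F for 30.1%. That with narciclasine was higher, so less negative or more positive, in TECs for 27% and in NRK49F for 19.9%. This order held with TMM and was reversed with total counts, which gave 2732 genes higher in TECs and 3061 higher in NRK49F. Nothing particular to the 10 genes is read from these counts. All values are log2 fold changes in TECs minus those in NRK49F, from 3 libraries per group. For TGF-β against control the differences were 0.81 for Fn1, -6.40 for Postn, -2.58 for Tnc, -4.47 for Spp1, -0.55 for Sparc, -1.91 for Thbs1, -2.86 for Thbs2, -0.81 for Tgfbi and -7.64 for Srpx2. The value of Srpx2 depends on 1 control count in NRK49F and is no bound. For narciclasine with TGF-β against TGF-β alone they were 0.68 for Fn1, 1.44 for Postn, 2.53 for Spp1, 0.68 for Sparc, -1.05 for Tgfbi and 1.08 for Srpx2. Species, cell origin and separate counting go with the cell kind and cannot be told apart.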

How the results depend on the processing

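For single genes, 77 values were recomputed in 1335 alternatives, of which 1295 kept direction and call, 24 lost the call, 13 gained one and 3 reversed. The reversed ones were Spp1 in NRK49F, narciclasine against control (-0.05; -0.18 to 0.32 with libraries left out), with 0.24 without control replicate 2, 0.03 without narciclasine replicate 2 (edgeR adjusted p = 0.94) and 0.32 without replicate 2 of all groups (edgeR adjusted p = 2.9e-09). Of the counts of genes called, that of genes lower in TECs with narciclasine against control was 1 with DESeq2 and 1 without replicate 2, and 1 to 2 with single libraries left out (2 as reported). That of genes higher in NRK49F with narciclasine against TGF-β was 0 to 1. With narciclasine against control, the count higher in NRK49F was 7 with total counts, 8 with no filter and 7 to 10 with libraries left out (9 as reported), and in TECs 6 to 7 (6 as reported). That of narciclasine effects more negative in NRK49F was 5 as reported and 8 without replicate 2. The causes were not tested. DESeq2 called the differences between cell kinds of Tnn (adjusted p = 0.0037 and 0.0066) and Thbs2 (adjusted p = 0.019). RLE factors changed no call of the 10 genes.

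Same-numbered libraries deviated from their group means with correlations of -0.258 to 0.211 in TECs and -0.0897 to 0.222 in NRK49F. Of the 9 such pairs in each cell kind, 1 in TECs and 4 in NRK49F were above 0.1. These values do not decide whether the numbers pair the libraries. With a replicate block, none of the 77 calls changed and the counts of genes called were as reported: for TGF-β 8 higher and 1 lower in TECs and 10 higher and 0 lower in NRK49F. Tnn, Postn, Tgfbi, Thbs2 and Srpx2 in TECs rest on 0 to 178 counts per library, which limits small differences.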
